A study of Mus musculus with 12 samples.

Results

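The clustered histone genes are the replication-dependent histone genes that lie side by side in the genome and carry symbols of the form Hist1h to Hist4h. All rows of the count tables with such a symbol were taken, which gave 63 genes of 32531 rows. The family was chosen by the measured difference between purified and whole-tissue RNA of the same libraries, in which Hist1h4d and Hist2h4, which both encode histone H4, were among the genes with the largest increases. The comparison of purified with whole-tissue RNA is therefore given for them as a description: no p-value of a single gene is printed, and counts of genes past a threshold are given beside the share of all genes past it, with nothing read from them. Of the 63 genes, 40 passed the filter on low counts and were among the 18128 genes tested.

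The RNA came from hypothalamus and midbrain of adult JX883 mice, a transgenic line in which Slc17a6 control sequences drive EGFP joined to Rpl10a, a protein of the large ribosomal subunit. Slc17a6 encodes VGLUT2, the glutamate transporter of synaptic vesicles in most excitatory neurons below the cortex. Translating ribosome affinity purification pulls tagged ribosomes down with antibodies against EGFP, and the RNA bound to them (IP) was sequenced beside RNA of the whole tissue (input). The 4 groups, hypothalamus IP, hypothalamus input, midbrain IP and midbrain input, held 3 libraries each, and the mice of every group carried the same transgene without further treatment named in the labels. The labels do not say whether a library is 1 animal or pooled animals, so that p-values measure only the spread between these libraries, which may be technical. No IP from mice without the tag was named. All IPs carried 1 index and all inputs another, and the regions of 1 replicate number ran on different lanes, so that fraction and index, or region and lane within a number, cannot be told apart.

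Histone proteins package DNA: H2A, H2B, H3 and H4 form the core of the nucleosome, and H1 binds the linker DNA between nucleosomes. The clustered genes are transcribed mainly while DNA is replicated, have no introns as a rule, and make messages that end in a conserved stem-loop, bound by the protein Slbp, in place of a poly(A) tail. Cells that no longer divide, such as adult neurons, rely largely on replication-independent variants such as H3f3b, whose messages carry a poly(A) tail, although some clustered genes are known to make polyadenylated messages too. Many of the genes have near-identical copies, which limits how well their reads can be placed on 1 gene.

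The stem-loop is shown for the H4 genes with the most RNA in the IPs, Hist1h4d, Hist2h4, Hist1h4c and Hist1h4a, and for 3 genes of other classes, Hist1h1e, Hist3h2ba and Hist1h2ad. The letters were read 5′ to 3′ from GENCODE transcript models of GRCm38 and are written with T; capitals mark the stem-loop of 16 bases, with 7 bases on each side.
Hist1h4d: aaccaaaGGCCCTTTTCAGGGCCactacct
Hist2h4: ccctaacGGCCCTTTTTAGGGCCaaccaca
Hist1h4c: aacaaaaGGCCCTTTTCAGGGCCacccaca
Hist1h4a: aaccaaaGGCCCTTCTCAGGGCCgcccaca
Hist1h1e: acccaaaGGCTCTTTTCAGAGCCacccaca
Hist3h2ba: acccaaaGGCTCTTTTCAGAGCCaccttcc
Hist1h2ad: aaacaaaGGCTCTTTTCAGAGCCatccact
A stem-loop of this pattern was found in the models of 42 of the 63 genes, in 8 distinct forms. The form of Hist1h1e, Hist3h2ba and Hist1h2ad occurred in 22 genes, of the classes H1, H2A, H2B and H3. The form of Hist1h4d and Hist1h4c occurred in 7 genes, all of them H4 genes. No such stem-loop was found in the models of Hist2h2be and Hist1h2bc, which encode H2B and have 3′ untranslated regions of 2192 and 742 bases. The models of 15 genes end at the stop codon and could not be searched.

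Many H2A and H2B genes start head to head, so that 1 stretch of DNA lies upstream of both. Among the 63 genes, 11 such pairs lay within 500 bases, and in 4 pairs both genes were tested. Sequence between the starts is shown for the pairs that contain Hist1h2bc and Hist2h2be, the H2B genes with the most RNA in the inputs and less in the IPs, and 250 bases upstream of the start are shown for Hist1h4d. All 3 were read from RefSeq promoter windows of GRCm38.p6, and starts are those of RefSeq, which for Hist1h4d differs from that of GENCODE. Capitals mark 3 short motifs, searched on both strands: TATAAA (the TATA box), CCAAT (the box bound by NF-Y) and ATTTGCAT (the octamer bound by Oct1, made from Pou2f1).
Hist1h2ac and Hist1h2bc, chr13:23683960-23684198, minus strand, read toward Hist1h2ac: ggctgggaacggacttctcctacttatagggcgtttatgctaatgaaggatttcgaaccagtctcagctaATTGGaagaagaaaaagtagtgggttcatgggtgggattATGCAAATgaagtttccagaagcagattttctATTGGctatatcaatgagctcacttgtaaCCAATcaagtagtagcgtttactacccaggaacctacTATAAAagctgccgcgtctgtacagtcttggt
Hist2h2ac and Hist2h2be, chr3:96220881-96221071, minus strand, read toward Hist2h2ac: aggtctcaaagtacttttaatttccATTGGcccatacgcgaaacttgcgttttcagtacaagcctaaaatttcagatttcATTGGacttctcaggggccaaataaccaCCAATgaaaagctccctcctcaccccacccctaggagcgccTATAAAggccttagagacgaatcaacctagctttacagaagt
Hist1h4d, chr13:23581318-23581567, plus strand: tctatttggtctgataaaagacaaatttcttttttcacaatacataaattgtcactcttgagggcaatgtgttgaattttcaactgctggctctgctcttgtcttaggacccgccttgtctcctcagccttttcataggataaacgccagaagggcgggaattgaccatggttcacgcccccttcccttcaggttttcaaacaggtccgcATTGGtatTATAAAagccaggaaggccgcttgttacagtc
RefSeq promoter windows of 300 bases were at hand for 57 of the 63 genes. TATAAA was in 57.9% of them and in 13.6% of the 32851 windows of all genes. CCAAT was in 84.2% against 37.4%, in all windows of the H1, H2A, H2B and H3 genes but in only 3 of the 12 H4 windows. ATTTGCAT was in 22.8% against 1.74%, and only in windows of H2A and H2B genes. A match of letters is a description of the window and no measurement of binding.

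Some facts of the libraries touch every value below. Library totals over all gene rows ran from 41909019 to 55148109 counts, and 3 counts came to between 0.0537 and 0.0709 CPM (counts scaled to library size, here with the trimmed mean of M values). The 63 genes together took between 0.00589% and 0.0226% of the counts. In each group, the library with replicate number 1 had the lowest summed level of the 63 genes. Rn45s, which gives ribosomal RNA, held 12.3% and 12.5% of the counts in the IPs of replicate 1, 5.21% to 6.85% in the other IPs and 2.57% to 3.97% in the inputs. Reads that fell on more than 1 gene model came to 3.24 to 3.79 per 100 counted reads in the IPs and to 8.32 to 35.1 in the inputs, highest in the inputs of replicate 1. Reads with more than 1 alignment, which the tables list apart, came to 70.8 to 114.9 per 100 counted reads in the IPs and to 48.9 to 61.9 in the inputs. The part of these differences in the histone values was not tested. Slc17a6, the gene that drives the tag, stood at 2117 ± 1227 CPM in the IP of the hypothalamus, its input at 349 ± 154 CPM (SD, n = 3, as in all values with ± below), and at 2737 ± 1087 and 775 ± 402 CPM in the midbrain. In bulk samples such as the inputs, fewer cells of a type and less RNA per cell cannot be told apart.

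Summed over the 63 genes, RNA of clustered histone genes was higher in the IP than in the input of both regions. In the hypothalamus, the sum was 125, 225 and 212 CPM in IP replicates 1, 2 and 3 and 63, 116 and 107 CPM in the inputs. In the midbrain, it was 120.4, 178 and 168 CPM in the IPs and 59.9, 127 and 105 CPM in the inputs. Every IP stood above all inputs in the hypothalamus, by little in replicate 1, while in the midbrain the IP of replicate 1 lay below the input of replicate 2. Hist1h4d alone made up much of the sum: without it, the means were 107 ± 40.1 and 76.9 ± 21.2 CPM in the IP and input of the hypothalamus, and 91.6 ± 24.9 and 79.5 ± 26.1 CPM in the midbrain. The groups then overlapped in both regions. In the hypothalamus, IP replicate 1, at 61.2 CPM, lay below input replicates 2 and 3, at 94.5 and 82.7 CPM. Without the libraries of replicate 1, the sum of all 63 was 218.3 and 111 CPM in the hypothalamus and 173 and 116 CPM in the midbrain.

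**Figure D1:**
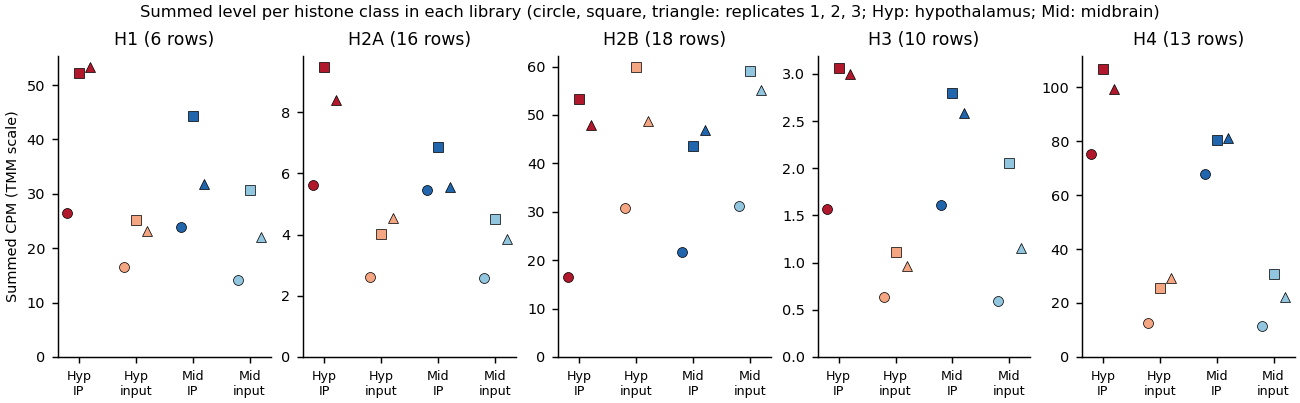
Summed level of each histone class in each of the 12 libraries, in CPM on an axis that starts at 0, with a point per library. H4 stood at 67.7 CPM or more in every IP and at 30.9 CPM or less in every input, while the H2B sums of IPs and inputs overlapped.

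The classes differed in this pattern. H4, with 13 genes, stood at 93.8 ± 16.4 CPM in hypothalamus IPs against 22.5 ± 8.9 CPM in inputs, and at 76.4 ± 7.55 and 21.5 ± 9.8 CPM in the midbrain, with no overlap in either region. Without Hist1h4d, H4 was at 13.9 ± 2.57 and 4.19 ± 1.29 CPM in the hypothalamus and at 12.5 ± 2.58 and 3.71 ± 1.55 CPM in the midbrain. This remainder still holds Hist2h4, which proposed the family together with Hist1h4d, so the H4 sums are a description only. H1, with 6 genes, was at 44 ± 15.2 and 21.6 ± 4.52 CPM in the hypothalamus and at 33.4 ± 10.3 and 22.3 ± 8.3 CPM in the midbrain, where the groups overlapped. H2A, with 16 genes, was low throughout, at 7.84 ± 2.0 and 3.72 ± 0.996 CPM in the hypothalamus and 5.96 ± 0.775 and 3.65 ± 0.969 CPM in the midbrain. The 10 H3 genes were lower still, at 2.54 ± 0.844 and 0.902 ± 0.245 CPM and at 2.33 ± 0.631 and 1.27 ± 0.735 CPM. H2B, with 18 genes, was the class whose summed mean was lower in the IP, with groups that overlapped in both regions. It was at 39.2 ± 19.9 against 46.5 ± 14.7 CPM in the hypothalamus and 37.4 ± 13.7 against 48.5 ± 15.1 CPM in the midbrain. This sum does not stand for most H2B genes: Hist2h2be and Hist1h2bc, with the most RNA in the inputs, were lower in the IP. Of the 14 H2B genes tested, 11 were higher in the IP in each region (median log2 fold change 1.16 and 1.24, against −0.08 and −0.05 over all genes).

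Hist1h4d (GRCm38, chromosome 13, 23581598 to 23582735, plus strand) had the highest level per length of all 63 genes in all 4 groups. Per kilobase of GENCODE exon it reached 70.2 CPM in the IP of the hypothalamus, and the next genes, Hist3h2ba and Hist1h1e, were at 22.8 and 18.9 CPM. Per kilobase of the shorter RefSeq gene it was at 199 CPM, above Hist1h1e at 46.6 and Hist3h2ba at 30.3 CPM. The size of such a level depends on the model, since GENCODE gives Hist1h4d 1138 exonic bases and RefSeq 402.

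In single libraries, Hist1h4d was at 64.2, 92.6 and 82.9 CPM in the hypothalamus IPs and 9.62, 21.5 and 24 CPM in the inputs. Midbrain values were 56.1, 65.1 and 70.6 CPM in the IPs and 9.24, 25.7 and 18.5 CPM in the inputs. Every IP lay above every input, and the input of replicate 1 was the lowest in both regions. The ratio of the means was 4.35 in the hypothalamus and 3.59 in the midbrain, with log2 fold changes of 2.12 (SE 0.37) and 1.84 (SE 0.37). Over 22 other settings of the analysis the log2 fold change was between 1.82 and 2.37 in the hypothalamus and between 1.53 and 2.21 in the midbrain.

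Hist2h4 lies in the cluster on chromosome 3 (96261682 to 96263311, minus strand) and encodes the same H4 protein. It was at 5.01, 5.38 and 8.24 CPM in the hypothalamus IPs and 0.863, 1.36 and 1.91 CPM in the inputs. It was at 5.44, 7.68 and 4.13 CPM in the midbrain IPs and 0.711, 0.85 and 0.686 CPM in the inputs, again without overlap. The log2 fold changes were 2.17 (SE 0.40) and 2.94 (SE 0.41). Of the stretches of 50 bases in its model, 1.01% were found in transcripts of other genes, against 10.2% for Hist1h4d.

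Hist1h4c and Hist1h4a, H4 genes of the chromosome 13 cluster, had the same pattern at lower levels. Hist1h4c was at 3.44, 4.68 and 4.01 CPM in the hypothalamus IPs against 0.547, 0.859 and 1.17 CPM in the inputs. In the midbrain the values were 2.85, 5.22 and 3.58 and 0.442, 1.18 and 1.32 CPM, so that the groups did not overlap in either region. Hist1h4a averaged 0.812 ± 0.218 and 0.14 ± 0.0652 CPM in the hypothalamus and 1.17 ± 0.333 and 0.228 ± 0.182 CPM in the midbrain. The log2 fold changes were 2.23 and 1.98 for Hist1h4c (SE 0.49 and 0.49), and 2.52 and 2.34 for Hist1h4a (SE 0.76 and 0.75).

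**Figure D2:**
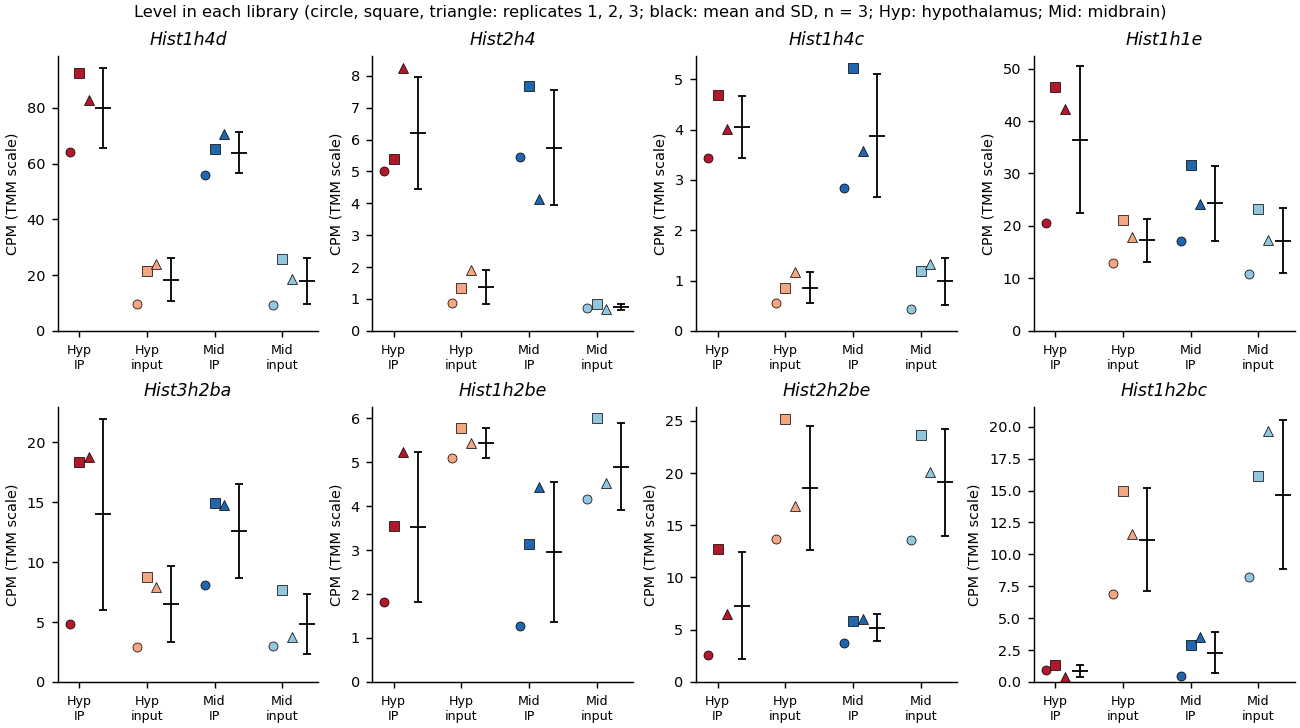
Level of 8 clustered histone genes in each of the 12 libraries, in CPM on axes that start at 0, with a point per library and the mean with its SD in black. The IPs of Hist1h4d, Hist2h4 and Hist1h4c stand above all inputs of the same region, and those of Hist2h2be and Hist1h2bc below them.

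Not every H4 gene followed. Hist1h4k, whose model ends at the stop codon and shares 71.5% of its 50-base stretches with other transcripts, was at 0.544, 0.900 and 0.375 CPM in the hypothalamus IPs and 0.716, 1.16 and 1.31 CPM in the inputs. In the midbrain its IPs, at 0.191, 0.173 and 0.233 CPM, all lay below its inputs, at 0.499, 1.31 and 0.662 CPM. The log2 fold changes were −0.81 (SE 0.63) and −2.04 (SE 0.66). Hist1h4j, at 0.393 CPM or less in every library, differed in sign between the regions (1.42, SE 1.08, and −1.17, SE 1.15). Hist4h4, the single gene of the cluster on chromosome 6, and Hist1h4f were higher in the IP by 2.83 and 2.41 in the hypothalamus and by 1.25 and 0.74 in the midbrain (log2, SE 1.16 to 1.30), from levels near a count of 3. Hist1h4h was at 2.19 (SE 0.72) and 0.94 (SE 0.69), and Hist1h4i below 0 in both regions, at −0.57 (SE 0.95) and −0.72 (SE 0.99).

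Hist1h2bc and Hist2h2be, both H2B genes, went the other way. Hist1h2bc (chromosome 13, 23684199 to 23692908, plus strand) was at 0.947, 1.32 and 0.375 CPM in the hypothalamus IPs and 6.92, 14.9 and 11.6 CPM in the inputs. Midbrain values were 0.489, 2.86 and 3.51 CPM in the IPs and 8.24, 16.1 and 19.7 CPM in the inputs. Every IP lay below every input, by the largest margin of the clustered genes in the hypothalamus, with log2 fold changes of −3.66 (SE 0.68) and −2.68 (SE 0.65). Hist2h2be (chromosome 3, 96221119 to 96223738, plus strand), the gene of an H2B variant studied in olfactory neurons, was at 2.58, 12.8 and 6.54 and 13.7, 25.2 and 16.9 CPM in the hypothalamus IPs and inputs. Midbrain IPs and inputs were at 3.72, 5.85 and 6.01 and 13.6, 23.6 and 20.1 CPM. All IPs were again below all inputs, at −1.35 (SE 0.47) and −1.88 (SE 0.48) on the log2 scale, and none of the 50-base stretches of Hist2h2be occurred in another transcript, against 30.1% of those of Hist1h2bc.

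Other H2B genes differed from both. Hist3h2ba, of the chromosome 11 cluster, was at 4.79, 18.3 and 18.8 CPM in the hypothalamus IPs and 2.88, 8.75 and 7.91 CPM in the inputs, where the IP of replicate 1 fell among the inputs. In the midbrain its IPs, at 8.07, 14.9 and 14.8 CPM, were all above its inputs, at 3.0, 7.65 and 3.76 CPM. The pseudogene Hist3h2bb-ps shares 30.05% of its 50-base stretches, mainly with Hist3h2ba, and was at 0.475 ± 0.31 and 0.169 ± 0.113 CPM in the hypothalamus and 0.579 ± 0.305 and 0.0858 ± 0.0784 CPM in the midbrain. Hist1h2bh had the largest log2 fold change in the hypothalamus, 3.04 (SE 1.18), but its IPs, at 0.0403, 0.441 and 0.543 CPM, overlapped its inputs, at 0.0631, 0.0358 and 0.0201 CPM. Hist1h2be was at 1.81, 3.54 and 5.23 CPM in the hypothalamus IPs and 5.09, 5.78 and 5.44 CPM in the inputs, where the groups overlapped.

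Among the linker histones, Hist1h1e was by far the most abundant. It was at 20.5, 46.5 and 42.3 CPM in the hypothalamus IPs and 12.9, 21.1 and 17.8 CPM in the inputs. In the midbrain the values were 17.2, 31.5 and 24.2 and 10.9, 23.3 and 17.3 CPM. The groups overlapped in both regions, though each IP was above the input of its own number, and the log2 fold changes were 1.08 (SE 0.36) and 0.50 (SE 0.35). Its GENCODE model overlaps that of the H2B gene Hist1h2be on the same strand, while the RefSeq genes do not overlap. Reads of such an overlap cannot be assigned to either gene, but the annotation used for counting is not given. Hist1h1c was about level in the hypothalamus (0.06, SE 0.51) and at 0.57 (SE 0.51) in the midbrain. Hist1h1a was at 1.5 (SE 0.54) and 0.44 (SE 0.53), with its highest value, 5.28 CPM, in the hypothalamus IP of replicate 3. Hist1h1d was at 0.87 (SE 0.62) and 1.93 (SE 0.64).

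H2A and H3 genes were scarce. Hist2h2ab was at 3.0, 4.09 and 3.43 CPM in the hypothalamus IPs and 1.28, 1.7 and 1.71 CPM in the inputs, and at 3.27, 2.5 and 2.33 and 1.42, 1.64 and 1.49 CPM in the midbrain, without overlap in either region. Hist2h2ac and Hist1h2ak were higher in the IP by 1.62 and 1.40 in the hypothalamus and by 1.00 and 1.67 in the midbrain (log2, SE 0.57 to 0.68). Hist1h2ad was lower in every IP than in any input of its region, at −1.53 (SE 1.09) and −2.94 (SE 1.15), and 67.1% of its 50-base stretches occur in other transcripts. Of the H3 genes, Hist1h3e was at 0.846, 1.1 and 1.29 CPM in the hypothalamus IPs and 0.147, 0.358 and 0.201 CPM in the inputs, and at 0.68, 0.825 and 1.02 and 0.25, 0.58 and 0.213 CPM in the midbrain. Hist1h3f was at 2.74 (SE 1.28) and 0.47 (SE 1.18), Hist1h3i at 1.77 (SE 1.06) and 2.00 (SE 1.13), and Hist2h3b at 0.96 (SE 0.83) and 1.53 (SE 0.84). Hist2h3c1 was at −0.93 (SE 1.13) and −0.81 (SE 1.12). All of its 50-base stretches occur in transcripts of other gene names, among them Gm20634, whose model overlaps it in the genome.

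**Figure D3:**
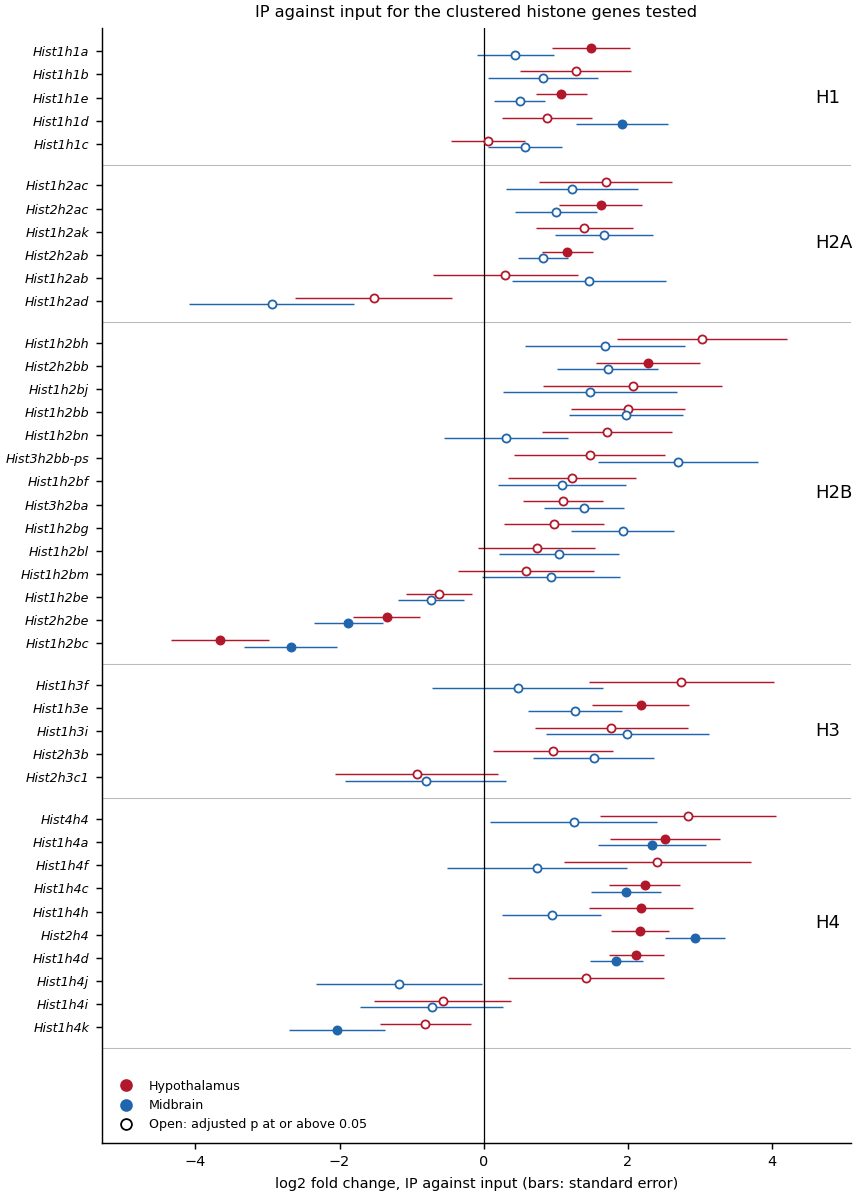
Log2 fold change of IP against input for the 40 clustered histone genes tested, by class, with standard errors as bars, for the hypothalamus (red) and the midbrain (blue). Filled points had an adjusted p under 0.05, and most points lie right of 0. To the left in both regions are Hist1h2bc, Hist2h2be, Hist1h2ad, Hist1h2be, Hist1h4k, Hist1h4i and Hist2h3c1.

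Counted over the genes, 33 of the 40 tested were above 0 in the hypothalamus and 32 in the midbrain. The median log2 fold change was 1.41 and 1.06, against −0.08 and −0.05 over all genes tested. In the hypothalamus, 11 of the 40 were higher with an adjusted p under 0.05 (edgeR's quasi-likelihood test over all genes, Benjamini-Hochberg adjustment), where 14.2% of all genes tested were, and 2 were lower, where 19.6% were. The 11 were 5 H4 genes (Hist1h4a, Hist1h4c, Hist1h4d, Hist1h4h and Hist2h4), Hist1h1a, Hist1h1e, Hist2h2ab, Hist2h2ac, Hist2h2bb and Hist1h3e. In the midbrain, 5 were higher, where 14% of all genes were, and 3 were lower, where 19.9% were: Hist1h1d, Hist1h4a, Hist1h4c, Hist1h4d and Hist2h4 were higher, and Hist1h2bc, Hist2h2be and Hist1h4k lower. With the replicate number as a block, Hist1h1a and Hist1h4h left the 11 in the hypothalamus and Hist1h2bb, Hist1h2bj, Hist1h3f and Hist3h2ba joined, which made 13. With a block for each region and number, 8 were higher in the hypothalamus, of which 6 were among the 11: Hist1h1a, Hist1h3e, Hist1h4a, Hist1h4h and Hist2h2ab left, and Hist1h2bb and Hist3h2ba joined. In the midbrain, both blocks added Hist1h1e, Hist1h2bb, Hist1h2bg and Hist3h2ba to the higher genes, which made 9 with the number and 8 with region and number, where Hist1h4a left. Among the lower genes of the midbrain, Hist1h2ad took the place of Hist1h4k under both blocks. Over all 18128 genes, more passed under the blocks too. In the hypothalamus, 3544 were higher with the number and 3334 with region and number, in place of 2576. In the midbrain, 3672 and 3504 were higher in place of 2544, and 4280 and 3905 lower in place of 3604. All 3 IPs lay above all 3 inputs for 16 of the 40 in the hypothalamus (19.7% of all genes) and 16 in the midbrain (21.1%), and below them for 3 (27.3%) and 4 (27.8%). These counts rest on the contrast that proposed the genes, and a scarce gene could pass the filter through the group where it was high, so nothing is read from them.

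The counts depended on single libraries. In the hypothalamus, the number higher fell from 11 to 3 without input replicate 1 and to 4 without IP replicate 2. It was 5 without input replicate 2 or 3, 6 without IP replicate 3, and 6 without all libraries of replicate 1. Over all genes, it went from 2576 of 18128 to 2039 of 18736 without input replicate 1 and 1997 of 18740 without IP replicate 2. It was 1912 of 18659 without input replicate 2, 2066 of 18712 without input replicate 3 and 2267 of 18724 without IP replicate 3. Without all libraries of replicate 1 it was 2619 of 18330. Among the clustered genes, the number lower was 1 in place of 2 without IP replicate 1 or 3 or input replicate 2 or 3. It was also 1 without midbrain IP replicate 2 or midbrain input replicate 2 or 3. Over all genes, 2757 to 3652 were lower in these settings, in place of 3547. In the midbrain, 3 of the clustered genes in place of 5 were higher without input replicate 1. Over all genes, 1957 of 18648 were, in place of 2544 of 18128.

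The head-to-head pairs show members with 1 stretch of upstream DNA between them. In 3 of the 4 pairs with both genes tested, the log2 fold changes had opposite signs in both regions. Hist1h2ac was at 1.69 and 1.23 (SE 0.92 and 0.92), opposite to Hist1h2bc, with 239 bases between the starts. Hist2h2ac, described above, stood opposite to Hist2h2be, with 191 bases between. Hist1h2bf was at 1.23 and 1.08 (SE 0.89 and 0.89), opposite to Hist1h2ad, with 173 bases between. The remaining pair, Hist1h2ak and Hist1h2bn, had the same sign in both regions, with 1.72 and 0.31 (SE 0.90 and 0.86) for Hist1h2bn. The pairs were taken by position alone, and 4 pairs are few.

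**Figure D4:**
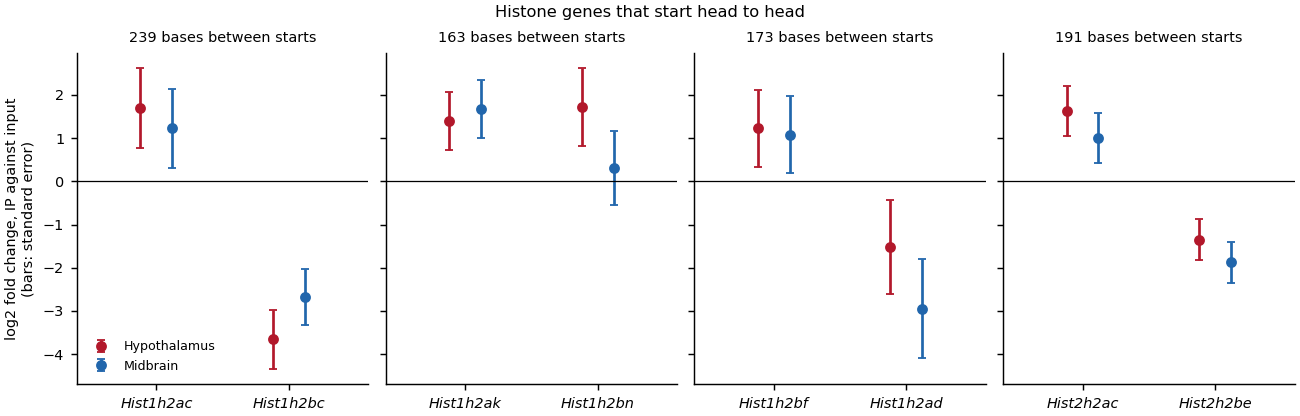
Log2 fold change of IP against input, with its standard error, for both genes of the 4 head-to-head pairs in which both were tested, in the hypothalamus (red) and the midbrain (blue). In all panels but that of Hist1h2ak and Hist1h2bn, the genes of a pair lie on opposite sides of 0.

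The ends of the gene models were compared as well. Among genes with a stem-loop and a model that runs more than 60 bases beyond it, 18 of 22 were tested, and 15 were above 0 in the hypothalamus and 14 in the midbrain (medians 1.56 and 1.26). Among those whose model ends within 60 bases of the stem-loop, 9 of 20 were tested, and 8 were above 0 in each region (medians 1.62 and 1.00). Of the 8 tested of 15 with a model that ends at the stop codon, 7 were above 0 in each region. The 4 tested of 5 genes with an untranslated region but no stem-loop in the model were split. Hist1h1a and Hist2h3b were above 0, and Hist1h2bc and Hist2h2be below 0, in both regions. The models of Hist1h1a and Hist2h3b have untranslated regions of only 48 and 37 bases, against 742 and 2192 for Hist1h2bc and Hist2h2be. Stem-loops that were found began 21 to 58 bases after the stop codon, so the short models may end before one, and the split is not read as one of stem-loops.

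The 23 genes that did not pass the filter had 0 to 66 counts each over the 12 libraries. Hist1h2ah and Hist3h2a had no count in any library, and Hist1h2ai had the most, 66. Just inside the filter, Hist1h4j had 81 counts. The median share of 50-base stretches found in transcripts of other genes was 74.2% for the genes left out and 39.1% for the 40 tested. Such shares also count transcripts of gene models that overlap the gene itself, not only copies elsewhere. All 13 H4 genes encode 1 protein, with coding sequences 85.3% to 100% identical. The 16 H2B genes with the common coding length encode 10 proteins, the 13 such H2A genes 6 and the 9 such H3 genes 2. Reads that align to several copies are not in these counts, and 22 of the 63 GENCODE models overlap another gene.

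Whether the clustered histone genes differ between the regions was tested within each fraction, a comparison that did not propose them. None of the 40 differed between the IPs at an adjusted p under 0.05 (edgeR's quasi-likelihood test), where the hypothalamus had 2.05% of all genes higher and 2.21% lower. DESeq2 and limma-voom called none of the 40 either. Of all 18128 genes, DESeq2 had 848 higher and 952 lower in the hypothalamus IP, and limma-voom 350 and 343. An unadjusted p under 0.05 was found for 1, Hist1h4k, by edgeR, and for 3 each by DESeq2 and limma-voom. Between the inputs none passed by any of these tools, where 1% of all genes were higher and 0.601% lower by edgeR. DESeq2 had 437 of all genes higher and 340 lower between the inputs, and limma-voom 209 and 169. There, 1 of the 40, Hist2h4, had an unadjusted p under 0.05 by edgeR, against 1 by DESeq2 and 0 by limma-voom. In the difference between the regions of IP against input none passed and none had such an unadjusted p, where 0.0607% and 0.0165% of all genes passed. The share of all genes with an unadjusted p under 0.05 was not taken, so nothing is read from the counts of unadjusted p.

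None of the values that follow passed over all genes without a block. Hist1h4k was higher in the hypothalamus IP than in the midbrain IP, with no overlap, at 1.6 (log2; SE 0.66; adjusted p = 0.218 by edgeR's quasi-likelihood test). Hist1h4j was at 2.46 (SE 1.15, adjusted p = 0.282 by the same test of edgeR), with 6, 17 and 21 counts in the hypothalamus IPs and 4, 2 and 1 in the midbrain IPs. In the other direction, Hist1h2bc was at −1.37 (SE 0.64, adjusted p = 0.284, edgeR) and Hist1h1d at −1.13 (SE 0.62, adjusted p = 0.368, edgeR) between the IPs. Between the inputs, the values farthest from 0 were those of Hist1h3f, −1.93 (SE 1.27), Hist1h2bn, −1.54 (SE 0.90), and Hist1h2ab, 1.47 (SE 1.07), with adjusted p of 0.688, 0.614 and 0.742 (edgeR). Hist2h4 was higher in all 3 hypothalamus inputs than in any midbrain input, by 0.88 (SE 0.40, adjusted p = 0.427, edgeR), and at 0.11 (SE 0.38, adjusted p = 0.926, edgeR) between the IPs. Hist1h4d was at 0.32 between the IPs (SE 0.36, adjusted p = 0.71, edgeR) and 0.04 between the inputs (SE 0.36, adjusted p = 0.994, edgeR). Hist1h1e was at 0.58 between the IPs (SE 0.35, adjusted p = 0.423, edgeR), and with the replicate number as a block it passed, at 0.55 (adjusted p = 0.0416, edgeR; 0.0416 to 0.753 over its alternatives). Under that block, 800 of all 18128 genes were higher in the hypothalamus IP and 1224 lower, in place of 372 and 401. Hist1h1e was higher in the hypothalamus IP than in the midbrain IP in each of the 3 pairs of 1 number. Among the 40, all 3 hypothalamus libraries lay above all 3 of the midbrain for 3 genes in the IPs (10% of all genes) and 1 in the inputs (11.9%), and below them for none (8.52% and 10.2%). Over the 40, 27 were above 0 between the IPs (median 0.23, against 0.01 over all genes) and 16 between the inputs (median −0.09, against 0.01), where scaling by library size alone put 21 above 0. Single libraries moved or turned these values: between the IPs, 20 of 40 were above 0 without hypothalamus IP replicate 3 (median −0.036), 21 of 42 without midbrain IP replicate 1 (0.035), 25 of 42 without hypothalamus IP replicate 2 (0.11), 33 of 42 without hypothalamus IP replicate 1 (0.49) and 29 of 42 without midbrain IP replicate 3 (0.41). Between the inputs, 29 of 42 were above 0 without midbrain input replicate 2 (median 0.27), 23 of 42 without hypothalamus input replicate 1 (0.15) or midbrain input replicate 3 (0.038), 12 of 41 without hypothalamus input replicate 3 (−0.26), 15 of 42 without midbrain input replicate 1 (−0.30) and 16 of 41 without hypothalamus input replicate 2 (−0.20). No direction of the clustered genes between the regions is read from them. Glial markers were lower in the hypothalamus IP than in the midbrain IP: 8 of 16 oligodendrocyte markers (median −1.62) and 3 of 16 astrocyte markers (median −0.97) passed. Between the inputs, 4 oligodendrocyte markers (median −0.95) and 0 astrocyte markers (median −0.23) were lower in the hypothalamus. In the difference between the regions of IP against input, 0 of either list passed. The part of these markers in the histone values was not tested.

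**Figure D5:**
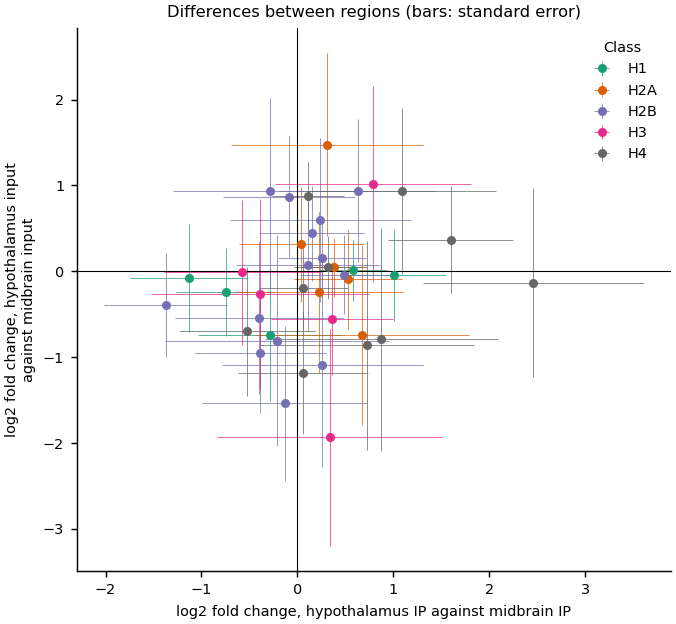
Log2 fold change between hypothalamus and midbrain for the 40 clustered histone genes tested, in the IPs (horizontal axis) and in the inputs (vertical axis), coloured by class, with standard errors as bars. The points scatter around 0 on both axes, and the point farthest right is Hist1h4j at 2.46.

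Other genes of histone supply were read from lists made with results of these data known, and higher or lower here means an adjusted p under 0.05 in edgeR's test over all genes. Of 20 genes of replication-independent variants, 11 were tested, and 7 were higher and 0 lower in the IP in each region (medians 0.76 and 0.71). H2afy, which encodes macroH2A, stood at 169.9 ± 64.4 CPM in hypothalamus IPs against 71.4 ± 3.37 CPM in inputs, and at 114 ± 24.3 and 62.6 ± 5.73 CPM in the midbrain. H3f3b, a gene of H3.3, was at 94.3 ± 16.7 and 60.4 ± 3.52 CPM and at 70.8 ± 10.9 and 48.7 ± 7.79 CPM. H1f0, the linker histone of resting cells, did not pass, with 0.39 and −0.01 on the log2 scale (SE 0.28 and 0.28). H1fx had the largest called value of the list, 1.32 (SE 0.43) and 1.64 (SE 0.44). Summed over the list, the variants stood at 474 to 588 CPM in the hypothalamus IPs, against 269 to 334 CPM in the inputs, above the sums of the clustered genes given before in each library.

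The genes that transcribe clustered histone genes or process their ends mostly did not pass. Of 24 tested, 2 were higher and 2 lower in the hypothalamus and 0 higher and 3 lower in the midbrain (medians 0.02 and −0.02). Slbp, which binds the stem-loop, was higher in the hypothalamus IP (0.77, SE 0.19) and at 0.47 (SE 0.19) in the midbrain, where it did not pass. Npat, the activator of histone transcription, was lower in both IPs (−1.03, SE 0.19, and −1.17, SE 0.19), as was Pou2f1 (−0.62, SE 0.21, and −1.06, SE 0.21). Of 24 histone chaperones tested, 2 were higher and 2 lower in each region (medians 0.01 and −0.05). Nap1l5, a nucleosome assembly protein gene, was higher in both IPs (0.75 and 0.98), and Ubn2, a partner of the H3.3 chaperone Hira, was lower (−1.64 and −1.80; SE of the 4 values 0.12 to 0.17).

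Genes of DNA replication and the cell cycle were scarce in both fractions. Of 27 tested, 0 were higher and 7 lower in the hypothalamus and 1 higher and 8 lower in the midbrain (medians −0.89 and −0.34). Their sum was 58.5 to 69.4 CPM in the hypothalamus IPs and 77.2 to 86.9 CPM in the inputs, and 73.9 to 78.3 and 76.1 to 80.8 CPM in the midbrain. Cdk1, the kinase of mitosis, and Cdc6, which licenses replication origins, were at 0 in all 6 IPs. Top2a, a topoisomerase of dividing cells, stood at 0.00624 ± 0.0108 CPM in hypothalamus IPs against 1.36 ± 0.783 CPM in inputs.

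Markers of other cell types moved with the fraction. All 16 astrocyte and all 16 oligodendrocyte markers were lower in the IP of both regions (medians −4.65 and −4.77 in the hypothalamus, −3.70 and −3.97 in the midbrain), as were 14 and 13 of 15 microglia markers and 12 and 10 of 16 endothelial and mural markers. The summed oligodendrocyte markers were at 202 to 239 CPM in the hypothalamus IPs and 3008 to 3928 CPM in the inputs, and at 352 to 526 and 5863 to 7281 CPM in the midbrain. Astrocyte markers summed to 311 to 422 CPM in the hypothalamus IPs and 1540.1 to 2845 CPM in the inputs, and microglia markers to 4.79 to 6.48 and 49.1 to 117 CPM. No marker of these lists was at 0 in all 6 IPs. Of 9 oligodendrocyte precursor markers 6 were lower in each region and 1, Lhfpl3, was higher in the midbrain. Of 14 ependymal, tanycyte and choroid plexus markers, 10 were lower in the hypothalamus and 8 in the midbrain. All 9 nuclear-retained noncoding RNAs tested were lower in both IPs (medians −3.80 and −3.96). Of 15 neuron markers, 8 were higher and 1 lower in the hypothalamus, and 4 and 1 in the midbrain. The part of these shifts in the lower values of Hist1h2bc and Hist2h2be, or in the higher values of the H4 genes, was not tested.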

How the data were processed

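The authors deposited 1 table of read counts per library, 12 in all, with a count for each gene symbol and 5 HTSeq summary rows. Per the submitters' processing notes, reads were aligned with STAR 2.0.0e to mm10 and counted with HTSeq; the annotation, strand setting and counting mode are not given in the sources used here. HTSeq leaves reads with more than 1 alignment or gene out of the gene rows, which lowers counts of near-identical copies. The summary rows were left out of library sizes and tests, and they held the reads with several alignments or genes given above. Library totals over genes were 41909019 to 55148109 counts.

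Groups came from the sample labels. Counts were fitted with edgeR 4.0.16 in R 4.3.3 (filterByExpr, scaling by the trimmed mean of M values, robust quasi-likelihood test with 4 group means and no block), with Benjamini-Hochberg adjustment over 18128 genes and a threshold of 0.05. Levels are CPM on that scale. The members, gene lists and named genes were chosen with earlier results of these data known. Named by rule were Hist1h4d and Hist2h4, up to 3 members of each class with the highest mean CPM, in each IP against input comparison the 5 that differed most each way, any called between the regions, and, of each list of related genes, the 3 with the highest mean CPM and up to 2 called with the largest change each way; other names were chosen after their values were seen. Alternatives were other scalings, filters, DESeq2 1.42.0, limma-voom (limma 3.58.1), replicate blocks, and each library left out. Libraries of 1 number deviated together, with correlations of their deviations from the group means of 0.155 to 0.324 between IP and input of the hypothalamus, 0.113 to 0.301 between the IPs, 0.141 to 0.379 between the inputs and 0.0754 to 0.189 between IP and input of the midbrain; by the threshold of 0.1 the numbers pair all but the last. The fit was tested on data simulated with the same spread for all genes and no pairing, unlike the real libraries. It recovered 53% of 2-fold and 95% of 4-fold changes, and 6.33% of its calls were false. Gene models were from GENCODE M21 (GRCm38, the same build as mm10), promoters from RefSeq.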

Additional observations from a re-analysis of the deposited data

How the results depend on the processing

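IP against input proposed the genes, so that a call kept in that comparison is no support for it. In the hypothalamus, Hist1h1a lost the threshold in 18 of 22 alternatives, Hist2h2ac in 14, Hist2h2be in 9, Hist2h2ab in 7 and Hist1h1e in 5 of 22, and Hist1h3e in 6 and Hist1h4a in 5 of 21. In the midbrain, Hist1h4k lost it in 9 of 22 and Hist1h4a in 5 of 21. Alternatives for single genes and for class sums were counted together. Of them, 1451 left the result as it was, 78 lost the threshold, 24 gained it and 23 turned the direction. For a gene, as it was means the same direction and side of the threshold. For a class sum, which has neither, it means within the SD of the main value. The cause of the changes below was not tested.

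In the hypothalamus, 11 genes were higher in the IP, but 6 with library size alone and 6 with a filter of at least 1 CPM in at least 3 libraries, which left 21 of the 63 genes in the test, and 6 without all libraries of replicate 1, a setting chosen after seeing the data; leaving out 1 library gave 3 to 13. Over all genes, 2576 of 18128 were higher, but 1633 with library size alone, 2436 of 15238 with that filter and 2619 of 18330 without replicate 1. Leaving out 1 library gave 1912 to 2604 over all genes. The number of clustered genes lower, 2, was 1 without Rn45s, 1 with no filter, and 1 to 2 with 1 library left out. Over all genes, 3547 were lower, but 3365 of 18106 without Rn45s, 3325 of 23589 with no filter, and 2757 to 3727 with 1 library left out. In the midbrain, 5 of the clustered genes were higher, where 2544 of all 18128 were, but 12 with DESeq2, where 2670 of all genes were. Leaving out 1 library gave 1918 to 2841 higher over all genes and 3 to 7 of the clustered genes. With the replicate number as a block, 9 were higher in the midbrain, and 8 with a block for each region and number, which gave 8 in the hypothalamus too; in the midbrain every library correlated best with its own number, a hint from the data and not from the design. Between the IPs of the regions, the replicate number as a block gave 1 higher clustered gene, Hist1h1e, in place of 0. Over all genes, it gave 800 higher in place of 372 and 1224 lower in place of 401. A block by region and number does not exist for comparisons between regions.

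The direction turned for small values. Hist1h1c in the hypothalamus was at 0.06, but at −0.079 with library size alone, −0.087 with limma-voom, −0.048 with the replicate number as a block and −0.094 with a block by region and number. Hist1h1e between the inputs was at 0.01, but at −0.010 with DESeq2 size factors, −0.021 without Rn45s and −0.011 with DESeq2. With 1 library, or all of replicate 1, left out, values were −0.48 to 0.38 for Hist1h1c in the hypothalamus, −0.23 to 0.30 for Hist1h1e between the inputs, −0.14 to 0.38 for Hist2h4 between the IPs, −0.27 to 0.41 for Hist1h4d between the inputs, −0.084 to 0.59 for Hist1h4d in the difference between the regions, −0.99 to 0.97 for Hist1h4j between the inputs and −0.080 to 2.35 for Hist1h3f in the midbrain.

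Scaling by library size alone moved the median over all genes from −0.08 to −0.25 in the hypothalamus and from 0.01 to 0.13 between the inputs. Higher genes then made up 28.9% of those called in place of 42.1% in the hypothalamus, 34.3% in place of 41.4% in the midbrain, and 74.1% in place of 62.5% between the inputs.

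The 3 libraries per group limit every comparison, and scarce genes rest on few counts.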
